A study of Mus musculus with 18 samples.

Results

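The comparison described here is the genotype by time interaction in neutrophils cultured with GM-CSF: the change between 4 h and 24 h in CIS-/- libraries, minus the same change in wild-type (WT) libraries. It was measured by RNA sequencing in 12 of the 18 libraries of the series, 3 in each of 4 groups: CIS-/- with GM-CSF for 24 h, CIS-/- with GM-CSF for 4 h, WT with GM-CSF for 24 h and WT with GM-CSF for 4 h. The neutrophils were sorted by FACS from bone marrow of 10-week-old mice and cultured in medium with 10% serum and 100 ng/mL GM-CSF, so every library of the comparison came from cells cultured with the cytokine, and no culture without it was among the samples used here. The 6 unstimulated libraries did not enter the comparison. CIS-/- denotes a knockout of Cish, whose deleted part the labels leave unnamed. Nothing in them ties replicates to separate mice or cultures, so the spread behind each p-value is that between libraries and may be technical. The later time is 24 h in the sample titles and the extraction protocol, while the treatment protocol in the labels gives a longer one.

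GM-CSF is a growth and survival factor of neutrophils, monocytes and macrophages. It binds a receptor made of a specific alpha chain (Csf2ra) and a shared beta chain (Csf2rb), and the receptor's JAK2 kinase activates the transcription factor STAT5, beside the MAP kinase and NF-kB pathways. Cish encodes CIS, an SH2-domain protein of the SOCS family which STAT5 induces and which acts back on the receptor complex as an inhibitor.

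Levels are given as CPM, counts per 1000000 after scaling between libraries, and a group as mean ± SD over its 3 libraries. The interaction value is a difference of log2 fold changes, given ± SE. A positive value means that the 24 h level relative to the 4 h level was higher in CIS-/- than in WT, and a gene was called at an edgeR adjusted p under 0.05. Fewer cells of a type and less RNA per cell cannot be told apart in such bulk samples.

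Cish itself checked the labels. It had 236, 240 and 227 CPM at 24 h and 240, 236 and 232 CPM at 4 h in CIS-/-. In WT it had 1080, 1060 and 1060 CPM at 24 h and 1130, 1120 and 1130 CPM at 4 h. Every CIS-/- library lay below every WT library at both times, by a log2 fold change of -2.19 at 24 h and -2.26 at 4 h. Its interaction value was 0.07 ± 0.05 (edgeR adjusted p = 0.253), which did not pass the test. The unstimulated libraries go the other way for Cish and are given in the closing section. The first 300 bases around the start of Cish, shown because this gene is what separates the groups, hold 2 copies of the STAT motif TTCNNNGAA (either strand) in capitals, both just after the start. The sequence is that of RefSeq on GRCm38.p6, chr9:107296409-107296708, plus strand.
Cish: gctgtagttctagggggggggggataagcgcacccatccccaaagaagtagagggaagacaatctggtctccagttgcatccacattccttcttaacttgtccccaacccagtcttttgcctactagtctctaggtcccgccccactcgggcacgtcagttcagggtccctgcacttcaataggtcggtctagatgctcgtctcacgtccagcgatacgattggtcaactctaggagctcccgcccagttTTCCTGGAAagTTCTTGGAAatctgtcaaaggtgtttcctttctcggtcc

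All 12 libraries carried neutrophil genes. The 14 neutrophil markers summed to 37400 to 42400 CPM at 24 h and 73000 to 78400 CPM at 4 h in CIS-/-, and to 38300 to 39900 CPM at 24 h and 79000 to 80600 CPM at 4 h in WT. Of them 7 had a higher and 5 a lower interaction value, with a median of 0.24, or of -0.25 with library sizes alone, where 3 were higher and 7 lower. Many markers of other cells were near 0: 15 of 16 T and NK cell, 10 of 13 B cell, 10 of 12 progenitor, 11 of 20 monocyte and macrophage, 10 of 17 eosinophil, basophil and mast cell, 7 of 14 dendritic cell and 8 of 15 erythroid and platelet markers stayed under 1 CPM in every group. Timd4 and Marco, macrophage genes, had no count in any of the 12 libraries, and C1qa and C1qb had 2 counts each in all, while at 24 h Lyz2 averaged 412 CPM in CIS-/- and 822 CPM in WT, Ly6c2 76.3 CPM in CIS-/- and 45.7 CPM in WT and Cd68 485 CPM in CIS-/- and 75.8 CPM in WT. Total counts lay between 12170524 and 22539858 per library. The 20 genes with most counts held 16.2% to 17.3% of them in CIS-/- at 24 h, against 11.4% to 11.5% in WT at 24 h, and the scaling factors of the WT libraries at 24 h stood apart (1.273 to 1.284, against 0.893 to 0.94 in the other 9). Changes are therefore relative to the bulk of genes. Without these factors the median interaction value of all genes was -0.52, against -0.04 with them, and each list below whose median changes sign in that setting has both values.

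The change between 4 h and 24 h differed between the genotypes for most genes. The interaction value was higher for 3732 of 11158 genes tested (33.4%) and lower for 3810 (34.1%). At an absolute value of at least 1, a 2-fold difference between the fold changes, it was higher for 1939 genes (17.4%) and lower for 1671 (15%). Each genotype changed strongly with time by itself: 4335 genes rose (38.9%) and 4255 fell (38.1%) in CIS-/-, and 4250 rose (38.1%) and 4252 fell (38.1%) in WT. At least 2-fold changes were 2033 rises (18.2%) and 1977 falls (17.7%) in CIS-/-, and 1648 rises (14.8%) and 1685 falls (15.1%) in WT. The genotypes often parted in direction. Of the 1939 genes with the larger positive values, 783 (40.4%) rose in CIS-/- and fell in WT, 464 rose in CIS-/- with no call in WT, and 305 rose in both. Another 170 were not called in CIS-/- and fell in WT, and 208 fell in both. Of the 1671 genes with the larger negative values, 580 (34.7%) fell in CIS-/- and rose in WT, 378 were not called in CIS-/- and rose in WT, 324 fell in both, 273 fell in CIS-/- with no call in WT, and 101 rose in both. The interaction and both time changes come from the same libraries, so these patterns describe 1 set of values. They were counted with the scaling factors only. With library sizes alone 6679 genes rose and 2417 fell in WT, so the WT side of these patterns depends on the scaling.

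**Figure D1:**
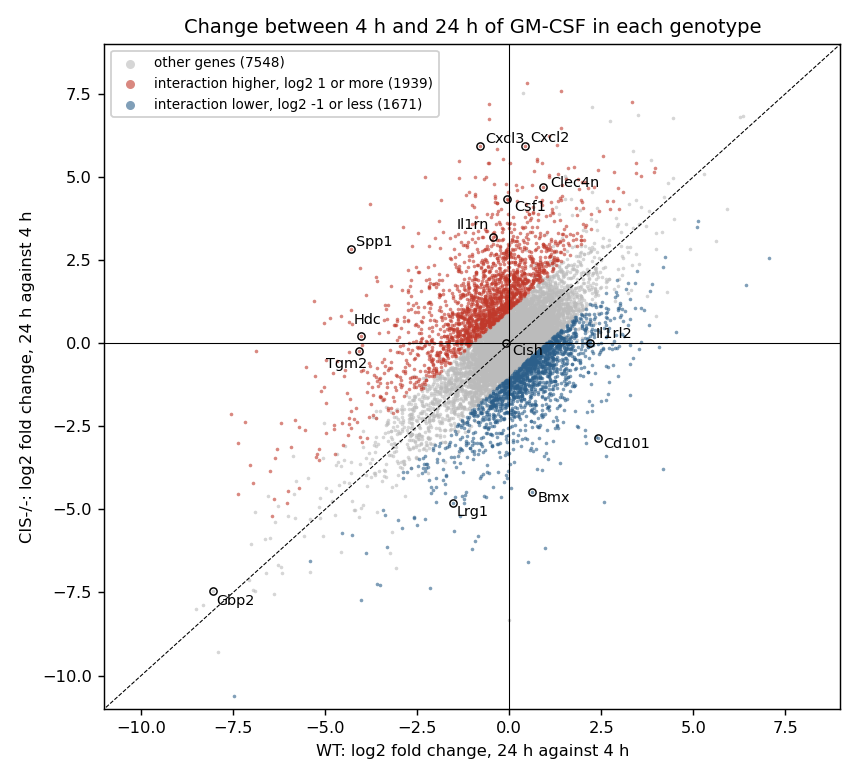
Log2 fold change between 24 h and 4 h in CIS-/- (vertical axis) against the same change in WT (horizontal axis), 1 point per gene tested; the dashed line marks equal change. Red points (1939 genes) have a called interaction value of at least 1 and blue points (1671 genes) one of -1 or less; Spp1 and Cd101 lie in the corners where the genotypes moved in opposite directions, and Gbp2 fell in both. Fitted values of genes with few counts in a group depend on the prior count.

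**Figure D2:**
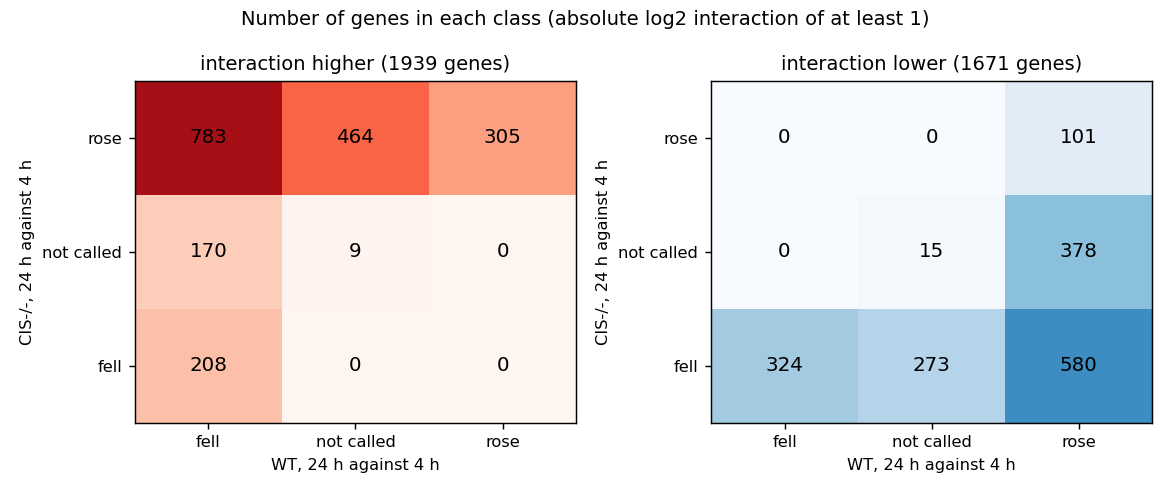
Numbers of genes with a called interaction value of at least 1 (left) and of -1 or less (right), by the call of the time change in CIS-/- (rows) and in WT (columns). The largest cells are 783 genes that rose in CIS-/- and fell in WT, and 580 genes that fell in CIS-/- and rose in WT. Calls were made with the scaling factors, on which the WT calls depend.

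Secreted inflammatory factors led the positive side. Of 28 tested cytokines, chemokines and growth factors, 23 had a higher and 2 a lower interaction value, with a median of 2.82 against -0.04 over all genes; 24 rose with time in CIS-/-, and 17 fell in WT. Spp1, which encodes osteopontin, an adhesive secreted cytokine, had 683, 621 and 623 CPM at 24 h and 92.4, 89.2 and 89.3 CPM at 4 h in CIS-/-. WT libraries had 4.93, 6.26 and 5.62 CPM at 24 h and 112, 112 and 114 CPM at 4 h. At 24 h every CIS-/- library lay far above every WT library, while at 4 h all 3 lay slightly below. Its interaction value of 7.15 ± 0.08 (edgeR adjusted p = 1.06e-50) combined a rise of 2.83 in CIS-/- with a fall in WT (-4.31). Csf1, the growth factor of macrophages, had 5190, 5350 and 5410 CPM at 24 h and 263, 259 and 265 CPM at 4 h in CIS-/-. In WT it stood at 201, 196 and 203 CPM at 24 h and 215, 200 and 209 CPM at 4 h, so that the WT libraries of both times overlapped, and the CIS-/- libraries lay above them at each time. The interaction value of Csf1 was 4.40 ± 0.05 (edgeR adjusted p = 3.55e-49).

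Cxcl2 and Cxcl3, ligands of the chemokine receptor CXCR2 that attract neutrophils, both rose steeply in CIS-/-. Cxcl2 had 7910, 6860 and 7340 CPM at 24 h and 121, 125 and 113 CPM at 4 h in CIS-/-. Its WT values were 130, 132 and 146 CPM at 24 h and 106, 102 and 94.7 CPM at 4 h. The CIS-/- libraries at 24 h stood alone, and the other 9 lay within a narrow range. Interaction values were 5.52 ± 0.08 for Cxcl2 (edgeR adjusted p = 7.05e-31) and 6.73 ± 0.08 for Cxcl3, which averaged 2770 ± 180 CPM at 24 h and 45.2 ± 1.9 CPM at 4 h in CIS-/- and 24.3 ± 2.3 CPM at 24 h and 42.2 ± 1.5 CPM at 4 h in WT. The 2 genes resemble each other in sequence, and the treatment of reads that match several genes is not stated in the labels. Ccl3 and Ccl4, chemokines for monocytes and lymphocytes, had interaction values of 4.80 ± 0.09 and 4.09 ± 0.08. Those of the interleukin-1 genes were 4.49 ± 0.19 for Il1a, 2.71 ± 0.06 for Il1b and 3.62 ± 0.05 for Il1rn, the receptor antagonist, which averaged 7100 ± 200 CPM at 24 h and 781 ± 21 CPM at 4 h in CIS-/- against 597 ± 18 CPM at 24 h and 806 ± 12 CPM at 4 h in WT. Tnf was at 2.63 ± 0.07, Vegfa at 2.64 ± 0.09 and Hbegf, an EGF-family growth factor, at 2.92 ± 0.07. The 2 lower members were TNF-family ligands: Tnfsf14 (-1.27 ± 0.06) fell in CIS-/-, to 103 ± 7.9 CPM, against 225 ± 9 CPM in WT, and Tnfsf13b, the B cell factor BAFF, had a value of -2.00 ± 0.39 at low levels (0.386 ± 0.12 CPM in CIS-/- at 24 h, against 1.35 ± 0.17 CPM in WT).

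NF-kB target genes and immediate-early genes, which inflammatory signals switch on, were mostly higher. Of 30 tested genes of the NF-kB pathway and response, 27 had a higher and 2 a lower interaction value (median 1.44), and of 27 immediate-early and AP-1 genes 23 were higher and 2 lower (median 1.86). Lists share members, Dusp5 being in both the immediate-early and the STAT5-associated one. Nfkbia, the inhibitor that NF-kB itself induces, had 2380, 2060 and 2070 CPM at 24 h and 257, 245 and 252 CPM at 4 h in CIS-/-. In WT it had 227, 223 and 235 CPM at 24 h and 215, 214 and 223 CPM at 4 h and was not called with time. Its interaction value was 3.04 ± 0.06 (edgeR adjusted p = 1.1e-38). The adhesion receptor gene Icam1 (3.30 ± 0.08), the ubiquitin-editing inhibitor Tnfaip3 (2.41 ± 0.07) and the prostaglandin synthase Ptgs2 (4.67 ± 0.14) were higher as well, while Birc2, a ubiquitin ligase of the TNF receptor complex, was lower (-0.56 ± 0.10). Reads of overlapping genes could not be told apart here for 7 genes named with values, whose exons share 20.7% to 61.7% of their bases with other genes: Apex1, Abhd15, Capn2, Stat4, Dusp5, Tgm2 and Cebpb. Among transcription factors of the AP-1 group, Atf3 averaged 961 ± 31 CPM at 24 h and 95.5 ± 2 CPM at 4 h in CIS-/-, against 39.5 ± 1.3 CPM at 24 h and 90.2 ± 0.93 CPM at 4 h in WT, an interaction value of 4.53 ± 0.06. Maff (4.34 ± 0.09) and Jun (2.51 ± 0.06) were higher, and so were Dusp1 (3.72 ± 0.06) and Dusp5 (3.93 ± 0.06), phosphatases that switch off MAP kinases. Atf3 and Dusp1 were among the genes that rose in CIS-/- and fell in WT.

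The promoters of 4 of these genes, whose RNAs all rose in CIS-/-, are shown as examples that hold the NF-kB consensus, and do not stand for their lists. Each is the RefSeq window on GRCm38.p6 from 250 bases before to 50 bases after the start, read along the gene's strand: Cxcl2 at chr5:90903649-90903948 (plus), Cxcl3 at chr5:90785851-90786150 (plus), Csf1 at chr3:107760420-107760719 (minus) and Nfkbia at chr12:55492598-55492897 (minus). Capitals mark matches to the NF-kB consensus on either strand, which in Cxcl2 and Cxcl3 are a pair of overlapping matches.
Cxcl2: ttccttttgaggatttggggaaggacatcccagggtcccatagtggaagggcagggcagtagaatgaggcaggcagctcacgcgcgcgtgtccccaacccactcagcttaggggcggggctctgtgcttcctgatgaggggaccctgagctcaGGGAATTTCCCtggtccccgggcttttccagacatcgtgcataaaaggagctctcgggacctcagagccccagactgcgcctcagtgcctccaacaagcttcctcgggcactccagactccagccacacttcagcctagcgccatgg
Cxcl3: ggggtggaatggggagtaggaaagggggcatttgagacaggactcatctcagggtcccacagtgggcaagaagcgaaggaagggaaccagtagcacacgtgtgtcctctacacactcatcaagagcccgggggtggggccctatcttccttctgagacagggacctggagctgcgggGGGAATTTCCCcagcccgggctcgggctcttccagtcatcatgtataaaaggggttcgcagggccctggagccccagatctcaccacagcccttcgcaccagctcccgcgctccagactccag
Csf1: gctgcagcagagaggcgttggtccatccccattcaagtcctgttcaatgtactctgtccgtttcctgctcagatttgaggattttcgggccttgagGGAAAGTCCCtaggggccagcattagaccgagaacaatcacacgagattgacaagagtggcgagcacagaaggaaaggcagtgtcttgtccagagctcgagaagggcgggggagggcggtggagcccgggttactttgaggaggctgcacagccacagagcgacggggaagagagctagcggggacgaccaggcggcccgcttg
Nfkbia: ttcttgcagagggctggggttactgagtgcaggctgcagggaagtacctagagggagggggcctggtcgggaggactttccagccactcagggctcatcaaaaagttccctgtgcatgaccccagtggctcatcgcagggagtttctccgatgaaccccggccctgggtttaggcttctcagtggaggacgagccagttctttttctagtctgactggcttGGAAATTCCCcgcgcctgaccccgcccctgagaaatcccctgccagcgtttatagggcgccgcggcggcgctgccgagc

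Promoter windows were listed for 8378 of 11147 named genes tested. A gene was counted when any of its listed windows held a match. The NF-kB consensus was found for 15.2% of the 1395 such genes with an interaction value of at least 1. It was found for 10.9% of the 1235 at -1 or less and 12.1% of all tested. Counted by window, it was in 8.46% of all 32851 listed. Of genes with a listed window, 10 of 20 in the cytokine list and 10 of 26 in the NF-kB list held it. The AP-1 motif TGANTCA was in 10.5%, 5.51%, 6.35% and 7.81% of the same 4 sets. For the STAT motif TTCNNNGAA, shown above in Cish, these shares were 9.1%, 7.21%, 8.47% and 8.3%. It was found for 2 of 13 genes of the STAT5-associated list with a listed window. A match is a description of the letters and no evidence of binding.

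Other single genes with large positive values came from metabolism, signalling and surface receptors. Acod1, the enzyme that makes itaconate, had 2060, 2000 and 1900 CPM at 24 h and 452, 448 and 444 CPM at 4 h in CIS-/-. The WT libraries held 71.2, 68.3 and 70.5 CPM at 24 h and 373, 387 and 400 CPM at 4 h. It rose in the one and fell in the other, with an interaction value of 4.62 ± 0.06 (edgeR adjusted p = 3.55e-49). Hilpda, a lipid droplet protein (5.63 ± 0.30), Edn1, the precursor of endothelin-1 (5.43 ± 0.26), and Capn2, a calpain protease subunit (5.17 ± 0.33), also rose in CIS-/- and fell in WT. Shmt1, a serine hydroxymethyltransferase of folate metabolism, stood at 34.9 ± 1 CPM in CIS-/- at 24 h and under 1 CPM in each of the other 9 libraries; its value of 7.37 ± 0.77 rests on 6 counts in CIS-/- at 4 h. Cxcl16, a scavenger receptor and chemokine, averaged 21.2 ± 1.6 CPM in CIS-/- at 24 h and under 1 CPM in the other 3 groups (6.16 ± 0.69). Ciart, a circadian repressor, had a value of 5.42 ± 0.33, and Apex1, a DNA repair enzyme, one of 5.19 ± 0.42. Ralgds, an activator of the Ral GTPases (4.54 ± 0.06), Hcar2, the receptor for niacin and beta-hydroxybutyrate (3.57 ± 0.06), and Mreg, melanoregulin (4.01 ± 0.06), were abundant: Hcar2 averaged 6280 ± 320 CPM in CIS-/- at 24 h, against 580 ± 24 CPM in WT.

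A further set of genes stayed near its early level in CIS-/- and fell in WT. Hdc, histidine decarboxylase, which makes histamine, had 586, 565 and 533 CPM at 24 h and 483, 486 and 463 CPM at 4 h in CIS-/-. In WT it had 34.9, 30.6 and 30.6 CPM at 24 h and 502, 508 and 542 CPM at 4 h. The genotypes lay close together at 4 h, and at 24 h the WT libraries lay far below, a log2 fold change between genotypes of 4.13. The small rise in CIS-/- (0.23) was called, and the interaction value was 4.25 ± 0.07 (edgeR adjusted p = 3.1e-45). Smox, spermine oxidase, had 478, 470 and 459 CPM at 24 h and 486, 462 and 475 CPM at 4 h in CIS-/- and was not called there. WT libraries had 113, 108 and 112 CPM at 24 h and 495, 494 and 515 CPM at 4 h, with an interaction value of 2.16 ± 0.05. Of the 170 genes of this pattern (no call in CIS-/-, a fall in WT, a value of at least 1), Ptafr, the receptor of platelet-activating factor (1.33 ± 0.05), Bcl2l11, the pro-apoptotic protein Bim (1.51 ± 0.06), Mfsd1, a lysosomal transporter (2.59 ± 0.06), Arfgef2, an exchange factor of Golgi vesicles (2.17 ± 0.06), and Plau, urokinase (2.65 ± 0.10), are the others the naming rule gives. Ptafr averaged 1740 ± 21 CPM at 24 h and 1730 ± 16 CPM at 4 h in CIS-/- and 681 ± 19 CPM at 24 h and 1710 ± 28 CPM at 4 h in WT. Among the 208 genes that fell in both but less in CIS-/-, Tgm2, a transglutaminase, averaged 485 ± 16 CPM at 24 h and 573 ± 4.7 CPM at 4 h in CIS-/- and 34.3 ± 2 CPM at 24 h and 582 ± 11 CPM at 4 h in WT (3.85 ± 0.06). Nampt, of NAD salvage (1.80 ± 0.05), Il1rap, the interleukin-1 receptor's accessory chain (2.23 ± 0.06), Itgax, the integrin CD11c (2.41 ± 0.07), and Hgsnat, a lysosomal acetyltransferase (2.23 ± 0.06), belong there too.

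**Figure D3:**
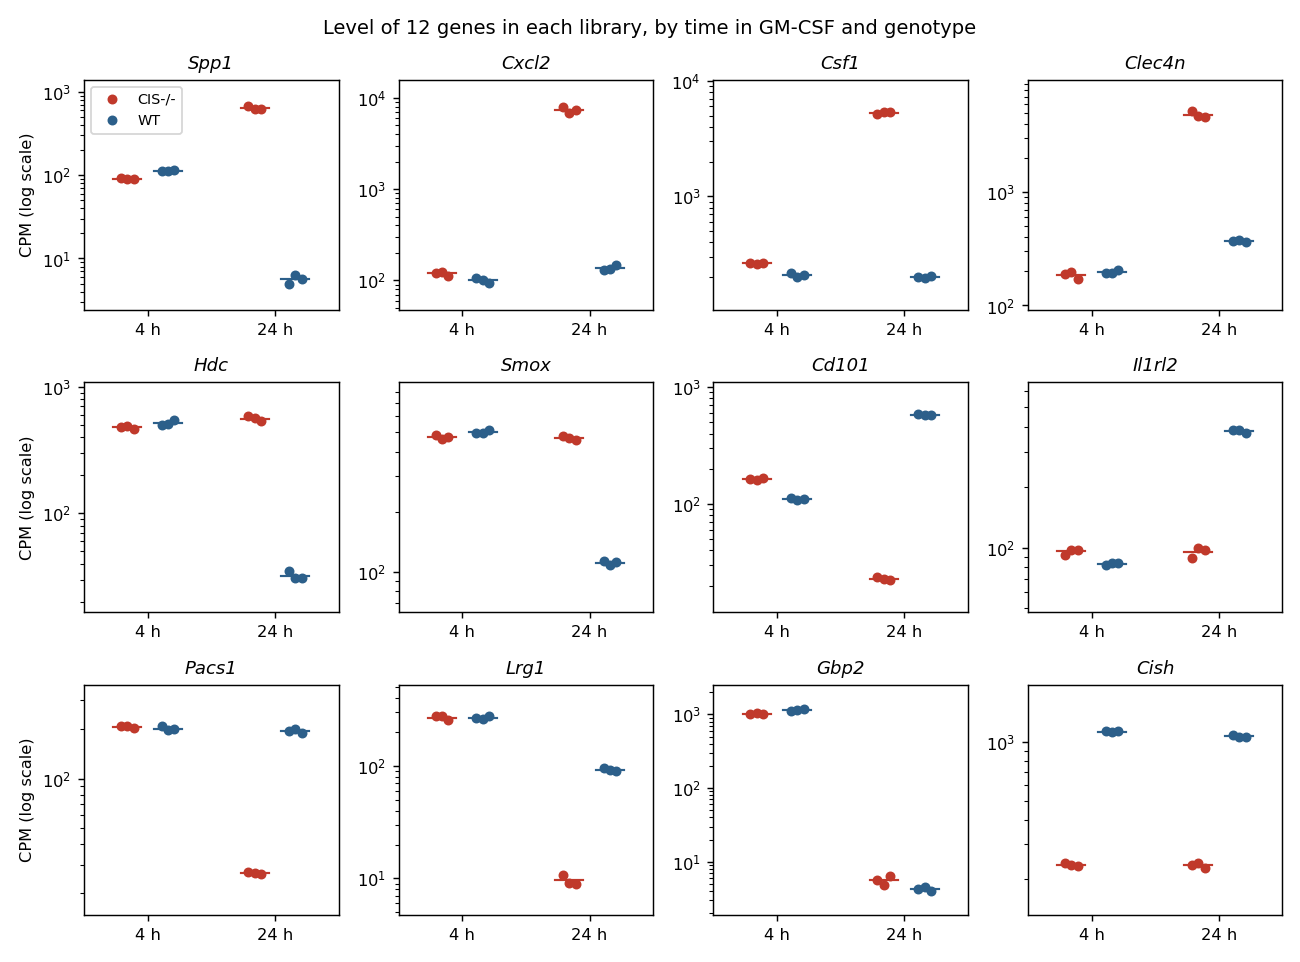
CPM on a log axis in each of the 12 libraries (points) with the group mean (line), at 4 h and 24 h, for the CIS-/- libraries (red) and WT (blue). Cxcl2, Csf1 and Clec4n are high only in the red points at 24 h. Spp1 is highest in the red and lowest in the blue points at 24 h. Hdc and Smox are low only in the blue points at 24 h. Cd101, Pacs1 and Lrg1 are lowest in the red points at 24 h, and Il1rl2 is high only in the blue points at 24 h. Gbp2 is low in both at 24 h, and Cish is lower in red at both times.

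Of the genes with the larger negative values, 580 fell in CIS-/- and rose in WT. Cd101, an immunoglobulin-family surface protein that marks mature mouse neutrophils, had 23.6, 22.6 and 22.2 CPM at 24 h and 163, 161 and 165 CPM at 4 h in CIS-/-. Its WT values were 584, 577 and 576 CPM at 24 h and 112, 108 and 110 CPM at 4 h. The order of the genotypes turned between the times: the CIS-/- libraries were higher at 4 h and lower at 24 h, without overlap at either (interaction -5.24 ± 0.06, edgeR adjusted p = 3.55e-49). Bmx, a Tec-family kinase, averaged 1.16 ± 0.16 CPM at 24 h and 25.2 ± 1 CPM at 4 h in CIS-/-, against 43.6 ± 1.1 CPM at 24 h and 28.2 ± 1 CPM at 4 h in WT (-5.11 ± 0.15). Fbxo31, a ubiquitin ligase adaptor (-4.57 ± 0.11), Eef2k, the kinase that slows translation elongation (-4.17 ± 0.20), Ctc1, a telomere protein (-3.90 ± 0.20), Abhd15 (-4.37 ± 0.14), Mettl7a1 (-4.33 ± 0.15) and Gpd1l, a glycerol-3-phosphate dehydrogenase homologue (-4.31 ± 0.11), likewise fell in CIS-/- and rose in WT. P2ry12, the ADP receptor (-4.17 ± 0.25), and Scnn1a, a sodium channel subunit (-3.99 ± 0.19), fell in both but more in CIS-/-. Nat8l, an acetyltransferase, had 3 counts over the CIS-/- libraries at 24 h and averaged 5.33 ± 0.8 CPM there at 4 h, against 13.7 ± 2.1 CPM at 24 h and 6.86 ± 0.9 CPM at 4 h in WT; no fold is given at 3 counts.

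In the 273 genes that fell in CIS-/- with no call in WT, the first by p was Pacs1, a sorting protein. It had 27.1, 26.8 and 26.3 CPM at 24 h and 210, 209 and 203 CPM at 4 h in CIS-/-. The WT libraries held 194, 199 and 190 CPM at 24 h and 209, 197 and 199 CPM at 4 h, where both times overlapped (interaction -2.91 ± 0.06, edgeR adjusted p = 1.57e-38). Prr5l, a protein of the mTORC2 complex (-3.30 ± 0.08), Rgs2, a brake on G protein signalling (-2.20 ± 0.07), and Cyp4f18, which oxidises leukotriene B4 (-2.08 ± 0.06), followed the same pattern. Of the 378 genes that were not called in CIS-/- and rose in WT, Il1rl2, the receptor of interleukin-36, had 88.6, 99.2 and 96.8 CPM at 24 h and 91.4, 97.6 and 97.6 CPM at 4 h in CIS-/-. In WT it had 385, 385 and 373 CPM at 24 h and 82.1, 83.3 and 83.9 CPM at 4 h, and its interaction value was -2.21 ± 0.06 (edgeR adjusted p = 1.37e-33). Card9, an adaptor below C-type lectin receptors, averaged 51.7 ± 2 CPM at 24 h and 51.9 ± 3 CPM at 4 h in CIS-/- and 183 ± 2.9 CPM at 24 h and 46.1 ± 1.3 CPM at 4 h in WT (-1.99 ± 0.07). The 101 genes that rose in both but more in WT include Arrb1, beta-arrestin 1 (-1.82 ± 0.07), Hist1h1c, a linker histone (-1.83 ± 0.07), and Cbx7, a Polycomb protein (-1.93 ± 0.10). The 324 that fell in both but more in CIS-/- include Rab27a, a GTPase of granule exocytosis, which averaged 33.4 ± 1.2 CPM at 24 h and 283 ± 3.7 CPM at 4 h in CIS-/- and 221 ± 3.4 CPM at 24 h and 309 ± 4.7 CPM at 4 h in WT (-2.59 ± 0.06), and the adaptors Sla (-2.42 ± 0.06) and Fyb (-2.79 ± 0.07).

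Receptors and transducers of the GM-CSF pathway split. Of 20 tested GM-CSF receptor, JAK and STAT genes, 12 had a higher and 8 a lower interaction value. Their median was 0.25, or -0.24 with library sizes alone, where 4 were higher and 14 lower. The chains Csf2ra (0.69 ± 0.05), Csf2rb (0.64 ± 0.05) and Csf2rb2, the mouse beta chain of the interleukin-3 receptor (1.06 ± 0.05), were higher, and Csf2rb fell in WT, to 1180 ± 23 CPM at 24 h, against 1810 ± 29 CPM at 4 h. Csf3r, the receptor of G-CSF, had 2300, 2380 and 2190 CPM at 24 h and 4890, 4760 and 4800 CPM at 4 h in CIS-/-. WT libraries had 6030, 5900 and 5890 CPM at 24 h and 4670, 4530 and 4600 CPM at 4 h: it fell in the first and rose in WT, an interaction value of -1.44 ± 0.05 (edgeR adjusted p = 1.32e-30). Stat5b had 60.3, 62.4 and 60 CPM at 24 h and 146, 138 and 144 CPM at 4 h in CIS-/-. Its WT values were 175, 173 and 166 CPM at 24 h and 156, 153 and 157 CPM at 4 h, and the value was -1.37 ± 0.06. Stat5a (-1.19 ± 0.13) and Stat4, the STAT of interleukin-12 (-3.67 ± 0.27), were lower too. Among 8 SOCS-family genes 3 were higher and 0 lower (median 0.21), beside 33.4% and 34.1% of all genes tested. With library sizes alone 4 were lower instead (median -0.28). Socs6 had the largest value (0.85 ± 0.19). Of 17 STAT5-associated genes 12 were higher and 4 lower (median 0.63), or 8 and 7 with library sizes alone (median 0.14). The CDK inhibitor Cdkn1a averaged 353 ± 21 CPM at 24 h and 104 ± 1.5 CPM at 4 h in CIS-/-, against 49.6 ± 0.8 CPM at 24 h and 74.4 ± 3.7 CPM at 4 h in WT (2.35 ± 0.07), and Gadd45g, a stress sensor (3.52 ± 0.10), and the cytokine Osm (1.57 ± 0.06) were higher; Ccnd3, cyclin D3 (-0.57 ± 0.06), and Bcl6, a repressor (-0.50 ± 0.07), were lower.

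Lysosomal genes, many of them targets of the transcription factors TFEB and TFE3, moved nearly as a block. Of 33 tested lysosome and V-ATPase genes, 30 had a higher and 1 a lower interaction value (median 1.61); 28 rose in CIS-/- and 24 fell in WT, and 14 had been lower in CIS-/- at 4 h (8.51% of all genes tested were). Ctsb, the protease cathepsin B, had 2870, 2680 and 2530 CPM at 24 h and 634, 639 and 628 CPM at 4 h in CIS-/-. The WT libraries held 410, 395 and 389 CPM at 24 h and 729, 736 and 761 CPM at 4 h. No library of 1 group overlapped those of another group at 24 h, and the value was 2.99 ± 0.06 (edgeR adjusted p = 1.01e-41). Gla, alpha-galactosidase, averaged 451 ± 12 CPM at 24 h and 149 ± 3.8 CPM at 4 h in CIS-/- and 52.2 ± 3 CPM at 24 h and 163 ± 2.5 CPM at 4 h in WT (3.24 ± 0.06). The proton pump subunits Atp6v0d2 (5.81 ± 0.12), Atp6v1h (3.34 ± 0.08), Atp6v1c1 (2.78 ± 0.06) and Atp6v1a (2.63 ± 0.05) were higher.

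The promoters of Gla and Atp6v1a are shown because they hold the E-box CACGTG, in capitals, a motif that is its own reverse complement and the core of the element that TFEB is known to bind. They are RefSeq windows on GRCm38.p6 at chrX:134600956-134601255 and chr16:44139210-44139509, both on the minus strand.
Gla: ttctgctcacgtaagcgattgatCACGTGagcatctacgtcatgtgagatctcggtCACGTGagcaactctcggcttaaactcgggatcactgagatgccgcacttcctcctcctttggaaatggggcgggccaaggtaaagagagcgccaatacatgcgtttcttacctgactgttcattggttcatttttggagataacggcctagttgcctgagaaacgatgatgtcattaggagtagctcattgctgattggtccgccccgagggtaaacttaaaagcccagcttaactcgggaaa
Atp6v1a: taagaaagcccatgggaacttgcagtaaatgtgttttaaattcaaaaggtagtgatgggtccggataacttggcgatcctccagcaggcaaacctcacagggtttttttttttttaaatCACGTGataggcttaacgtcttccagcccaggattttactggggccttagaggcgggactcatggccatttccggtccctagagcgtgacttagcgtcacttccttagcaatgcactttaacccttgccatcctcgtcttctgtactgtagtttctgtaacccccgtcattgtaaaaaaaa
The E-box was found for 10 of 25 genes of the lysosome list with a listed window (40.0%). It was found for 19.9% of such genes with an interaction value of at least 1, 7.53% of those at -1 or less and 12.2% of all tested. Counted by window, it was in 7.15% of all listed.

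Redox, lipid and protein-folding genes were mostly higher. Of 22 NRF2 and antioxidant genes 20 had a higher and 2 a lower interaction value (median 1.88). Hmox1, heme oxygenase 1, had 1600, 1520 and 1430 CPM at 24 h and 661, 658 and 643 CPM at 4 h in CIS-/-. In WT it had 160, 169 and 172 CPM at 24 h and 764, 761 and 793 CPM at 4 h, so that it rose in one genotype and fell in the other (3.42 ± 0.06, edgeR adjusted p = 6.19e-44). Slc7a11, the cystine carrier, averaged 4500 ± 370 CPM at 24 h and 1180 ± 29 CPM at 4 h in CIS-/- and 276 ± 11 CPM at 24 h and 1240 ± 5.8 CPM at 4 h in WT (4.10 ± 0.06). Srxn1, sulfiredoxin (3.61 ± 0.06), Gclc, of glutathione synthesis (3.15 ± 0.10), and Txnrd1, thioredoxin reductase (2.71 ± 0.05), were higher. Fth1, ferritin heavy chain and one of the most abundant RNAs, averaged 33100 ± 2500 CPM at 24 h and 18800 ± 960 CPM at 4 h in CIS-/- and 8880 ± 180 CPM at 24 h and 18800 ± 280 CPM at 4 h in WT (1.90 ± 0.06). Lower were the glutathione peroxidases Gpx1 (-1.78 ± 0.06) and Gpx4 (-0.82 ± 0.07). Of 25 sterol genes 16 were higher and 2 lower (median 1.22), although 23 rose with time in each genotype: Insig1, an SREBP regulator, averaged 146 ± 3.8 CPM at 24 h and 7.65 ± 0.76 CPM at 4 h in CIS-/- and 51.5 ± 0.9 CPM at 24 h and 8.2 ± 1.2 CPM at 4 h in WT (1.61 ± 0.13). Of 16 LXR and lipid export genes 10 were higher and 1 lower (median 0.96). Among the higher, Plin2, a lipid droplet coat (1.71 ± 0.05), rose in CIS-/- (0.93) and fell in WT (-0.78). Abca1, a cholesterol exporter (1.88 ± 0.21), fell in both, but less in CIS-/- (-3.34) than in WT (-5.23).

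Of 30 genes of the unfolded-protein and amino-acid stress responses 22 were higher and 5 lower (median 1.01). Hspa5, the chaperone BiP, averaged 1110 ± 27 CPM at 24 h and 268 ± 11 CPM at 4 h in CIS-/- and 254 ± 11 CPM at 24 h and 262 ± 4.5 CPM at 4 h in WT (2.09 ± 0.06), and Ppp1r15a, which restores translation after stress, had a value of 4.77 ± 0.13. The sensor Ern1 was lower (-0.82 ± 0.08). Of 33 ribosome biogenesis genes 24 were higher and 1 lower (median 1.15), while 30 rose in CIS-/- and 21 in WT. Gnl3, nucleostemin, averaged 46.8 ± 2.9 CPM at 24 h and 2.27 ± 0.13 CPM at 4 h in CIS-/- and 4.51 ± 0.074 CPM at 24 h and 1.71 ± 0.39 CPM at 4 h in WT (2.99 ± 0.26); Polr1a, the largest subunit of RNA polymerase I, was the lower one (-1.40 ± 0.10). Of 16 heat shock genes 10 were higher and 2 lower (median 0.54), or 5 and 4 with library sizes alone (median 0.05). Proteasome genes shifted little: 17 of 31 were higher and 2 lower (median 0.25, or -0.23 with library sizes alone, where 5 were higher and 17 lower).

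Interferon-stimulated genes, antiviral genes that type I and II interferons induce, fell with time in both genotypes, with 1 exception. All 40 tested members fell in WT and 39 in CIS-/-, where the chemokine gene Cxcl10 rose. The interaction value was higher for 21 and lower for 12, with a median of 0.38, or of -0.11 with library sizes alone, where 9 were higher and 17 lower. At 4 h 28 of the 40 were already lower in CIS-/- (8.51% of all genes tested were). Rsad2, the antiviral enzyme viperin, had 7.29, 8.8 and 7.87 CPM at 24 h and 293, 289 and 295 CPM at 4 h in CIS-/-. WT libraries had 5.55, 5.46 and 5.82 CPM at 24 h and 480, 490 and 498 CPM at 4 h. It fell in both genotypes, and the CIS-/- libraries had been lower at 4 h without overlap (1.25 ± 0.11, edgeR adjusted p = 5.09e-15). Samd9l, an antiviral restriction factor, was the clearest of those higher (1.64 ± 0.06), with 168 ± 11 CPM in CIS-/- at 24 h, against 64.8 ± 1.3 CPM in WT. Gbp7, a guanylate-binding protein, averaged 20 ± 2.1 CPM at 24 h and 734 ± 34 CPM at 4 h in CIS-/- and 74.7 ± 3.1 CPM at 24 h and 770 ± 16 CPM at 4 h in WT, so its fall was steeper in CIS-/- (-1.81 ± 0.07). Gbp2, of the same family, averaged 5.63 ± 0.7 CPM in CIS-/- at 24 h, against 4.28 ± 0.24 CPM in WT, after 1020 ± 17 CPM and 1150 ± 36 CPM at 4 h. The genes of this family are similar in sequence, and reads may have been split between them.

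The promoters of Rsad2 and Gbp7 are shown because their interaction values have opposite signs although each holds 1 match to a pair of GAAA spaced by 2 bases, a core of the interferon-stimulated response element, in capitals as read on either strand. They are RefSeq windows on GRCm38.p6 at chr12:26456403-26456702 (minus strand) and chr3:142530086-142530385 (plus strand).
Rsad2: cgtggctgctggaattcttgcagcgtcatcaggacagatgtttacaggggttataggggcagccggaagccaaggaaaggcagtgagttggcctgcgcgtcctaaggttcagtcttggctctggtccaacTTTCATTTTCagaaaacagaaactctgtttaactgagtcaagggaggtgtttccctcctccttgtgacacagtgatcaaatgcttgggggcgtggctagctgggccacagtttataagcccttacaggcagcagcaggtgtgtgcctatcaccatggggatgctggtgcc
Gbp7: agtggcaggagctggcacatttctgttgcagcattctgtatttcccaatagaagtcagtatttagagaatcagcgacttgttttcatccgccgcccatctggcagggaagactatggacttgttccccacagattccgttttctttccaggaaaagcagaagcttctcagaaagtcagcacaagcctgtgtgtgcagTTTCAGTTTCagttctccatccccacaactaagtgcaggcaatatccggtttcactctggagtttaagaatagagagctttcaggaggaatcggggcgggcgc
This motif was found for 21 of 32 genes of the interferon list with a listed window (65.6%). It was found for 3.44% of such genes with a value of at least 1, 3.56% of those at -1 or less and 4.05% of all tested. Counted by window, it was in 3.44% of all listed.

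Antigen presentation genes were mixed. Of 23 MHC class I genes 10 had a higher and 11 a lower interaction value (median -0.17), or 6 and 15 with library sizes alone (median -0.66). Nlrc5, the transcriptional activator of class I genes, averaged 18.2 ± 2.6 CPM at 24 h and 417 ± 18 CPM at 4 h in CIS-/- and 2.82 ± 0.32 CPM at 24 h and 462 ± 13 CPM at 4 h in WT (2.84 ± 0.11). The endoplasmic reticulum chaperones Calr (1.91 ± 0.06) and Canx (1.69 ± 0.06) were higher, whereas the immunoproteasome subunits Psmb8 (-1.51 ± 0.09), Psmb9 (-2.79 ± 0.12) and Psmb10 (-1.21 ± 0.14) and the peptide transporter genes Tap1 (-0.83 ± 0.07) and Tap2 (-0.88 ± 0.07) were lower. Psmb9 averaged 3.29 ± 0.35 CPM in CIS-/- at 24 h, against 24.7 ± 1.1 CPM in WT. Of 16 class II and costimulation genes 10 were higher and 3 lower (median 1.51). Cd274, the inhibitory ligand PD-L1, had 1480, 1490 and 1480 CPM at 24 h and 326, 329 and 341 CPM at 4 h in CIS-/-. Its WT values were 163, 156 and 157 CPM at 24 h and 358, 353 and 361 CPM at 4 h, and the interaction value was 3.33 ± 0.05 (edgeR adjusted p = 1.68e-44). Pdcd1lg2, PD-L2 (2.12 ± 0.12), and the costimulatory ligand Cd80 (2.14 ± 0.07) were higher. The class II chain H2-Eb1 had a value of 5.29 ± 0.29 at levels of 10.8 ± 2.3 CPM in CIS-/- at 24 h, against 0.391 ± 0.18 CPM in WT. Of 7 tested dendritic cell markers 4 were higher (Batf3, H2-Ab1, Bst2 and Cd74). In CIS-/- H2-Ab1 went from 3.64 CPM at 4 h to 2.15 CPM at 24 h, and Bst2 from 16.7 to 3.15 CPM. The list summed to 204 to 225 CPM in CIS-/- at 24 h, against 70 to 74.2 CPM in WT. Cd74 (146 CPM in CIS-/- and 62.4 CPM in WT) and Batf3 (47.8 and 1.13 CPM) made up most of that list. Of its defining genes, Xcr1, Cd209a and Siglech held 1, 8 and 7 counts in all 12 libraries, while at 24 h Clec9a averaged 1.48 CPM in CIS-/- and 1.6 CPM in WT and Itgae 11 CPM in CIS-/- and 3.99 CPM in WT. The part of such cells in these results was not tested.

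Counts for pattern-recognition receptor genes leaned to the higher side and depended on scaling. Of 30 Fc, complement and lectin receptors 21 were higher and 6 lower (median 0.55), or 14 and 12 with library sizes alone (median 0.06). Of 19 Toll-like receptors and adaptors 12 were higher and 5 lower (median 0.89), or 10 and 8 with library sizes alone (median 0.40). Clec4n, the fungal receptor dectin-2, had 5200, 4680 and 4610 CPM at 24 h and 188, 196 and 173 CPM at 4 h in CIS-/-. The WT libraries held 372, 375 and 365 CPM at 24 h and 192, 194 and 204 CPM at 4 h, a rise in both but far larger in CIS-/- (3.78 ± 0.06, edgeR adjusted p = 5.63e-41). Its relatives Clec4e (3.18 ± 0.06), Clec4d (2.37 ± 0.06) and Clec7a (1.92 ± 0.05) were higher, as were the signalling kinase gene Irak2 (2.86 ± 0.05) and Tlr4 (1.03 ± 0.06); C3ar1, the C3a receptor (-1.58 ± 0.12), and the endosomal receptor gene Tlr8 (-2.73 ± 0.24) were lower. Of 34 specific and gelatinase granule genes 21 were higher and 10 lower (median 0.71), or 17 and 13 with library sizes alone (median 0.22), although 32 fell in WT and 27 in CIS-/-. Lrg1, a granule glycoprotein, had 10.8, 9.08 and 9 CPM at 24 h and 277, 275 and 254 CPM at 4 h in CIS-/-. In WT it had 95.4, 92.3 and 90.1 CPM at 24 h and 266, 263 and 276 CPM at 4 h, so the early level was lost further in CIS-/- (-3.28 ± 0.08). Retnlg, a resistin-like protein (-2.65 ± 0.08), Padi4, which citrullinates histones (-1.61 ± 0.06), and Anxa1, an anti-inflammatory annexin (-1.56 ± 0.05), were lower too, while Ltf, lactoferrin (1.46 ± 0.05), and Olfm4, olfactomedin 4 (1.71 ± 0.06), were higher. Of 8 NADPH oxidase genes 4 were higher and 3 lower (median 0.12), beside 33.4% and 34.1% of all genes tested. With library sizes alone 2 of them were higher and 5 lower (median -0.37).

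Of 32 adhesion and migration receptors 19 were higher and 10 lower (median 0.60), or 16 and 14 with library sizes alone (median 0.11). Cd9, a tetraspanin (2.47 ± 0.06), Cd44, the hyaluronan receptor (1.49 ± 0.05), and the formyl peptide receptors Fpr1 (1.28 ± 0.07) and Fpr2 (1.31 ± 0.07) were higher. Cxcr2, the receptor of the chemokines Cxcl2 and Cxcl3, averaged 854 ± 7.4 CPM at 24 h and 3810 ± 43 CPM at 4 h in CIS-/- and 1850 ± 65 CPM at 24 h and 3340 ± 55 CPM at 4 h in WT (-1.30 ± 0.05). The integrin genes Itgb7 (-3.44 ± 0.14) and Itgal (-1.36 ± 0.06) and Selplg, the P-selectin ligand (-1.02 ± 0.05), were lower. Lipid mediator genes had 6 higher and 10 lower of 17 (median -0.56): the leukotriene pathway gene Alox5ap (-1.49 ± 0.06) and Tbxas1, thromboxane synthase (-1.55 ± 0.09), were lower, set against Ptgs2 among the higher. Of 20 inflammasome and interleukin-1 genes 9 were higher and 9 lower (median -0.01, or 8 and 10 with a median of -0.49 with library sizes alone), with Casp4, a caspase that senses lipopolysaccharide (3.55 ± 0.08), and Nlrp3 (1.02 ± 0.05) among the higher and Nlrp1b (-2.98 ± 0.24) among the lower. Anti-apoptotic genes had 11 higher and 2 lower of 17 (median 0.63), or 7 and 7 with library sizes alone (median 0.14). The first by p were Cflar, the inhibitor c-FLIP (1.76 ± 0.06), and Birc3 (1.21 ± 0.06), though other members had larger values. Pro-apoptotic genes had 7 and 7 of 16 (median -0.13), or 6 and 10 with library sizes alone (median -0.62), with Bax (2.25 ± 0.08) higher and Bmf (-2.12 ± 0.17) lower.

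Energy metabolism genes leaned the other way or were mixed. Nuclear-encoded oxidative phosphorylation genes had 7 higher and 20 lower of 39 (median -0.28), by small amounts. With library sizes alone 1 was higher and 32 lower (median -0.77). The member farthest from 0 was Cycs, cytochrome c (2.31 ± 0.21). Ndufb10, a complex I subunit (-1.11 ± 0.15), and Sdha, of complex II (-0.81 ± 0.07), were among the lower. Sdha averaged 85.5 ± 0.34 CPM at 24 h and 86.1 ± 1 CPM at 4 h in CIS-/- and 157 ± 8.5 CPM at 24 h and 90.3 ± 3.2 CPM at 4 h in WT. Glycolysis and pentose phosphate genes had 14 higher and 9 lower of 26, with a median of 0.24, or of -0.25 with library sizes alone, where 7 were higher and 14 lower: Pfkp, phosphofructokinase (1.49 ± 0.06), and Hk2, hexokinase 2 (1.40 ± 0.06), were higher, and the glucose carrier Slc2a3 (-1.76 ± 0.05) and Pfkfb4 (-1.45 ± 0.06) lower. Hypoxia-associated genes had 7 higher and 6 lower of 16 (median 0.05), beside 33.4% and 34.1% of all genes tested. With library sizes alone 5 of them were higher and 10 lower (median -0.44). Of 34 cell cycle genes 11 were higher and 4 lower (median 0.35, or -0.14 with library sizes alone, where 5 were higher and 7 lower; 33.4% and 34.1% of all genes tested were), and 27 fell with time in each genotype. Among 20 myeloid transcription factors 11 were higher and 6 lower (median 0.46, or -0.03 with library sizes alone, where 8 were higher and 9 lower), with Batf3 (4.80 ± 0.35), Zeb2 (2.29 ± 0.07) and Cebpb (1.38 ± 0.11) and Gfi1, a repressor needed for granulocyte formation (3.29 ± 0.25), higher and Cebpa (-2.05 ± 0.13), Cebpe (-0.68 ± 0.10) and Cebpd (-1.03 ± 0.08) lower. Among 13 azurophil granule and early-stage genes 5 were higher and 4 lower (median 0.54), or 5 and 5 with library sizes alone (median 0.06), near the shares over all genes.

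Genotype differences were few and small at 4 h and wide at 24 h, and the libraries of the 2 times are separate samples. At 4 h 865 genes (7.75%) were higher and 949 (8.51%) lower in CIS-/-, and 69 and 50 of them at least 2-fold (0.618% and 0.448% of all genes tested). At 24 h 4211 (37.7%) were higher and 4472 (40.1%) lower, 1995 (17.9%) and 1841 (16.5%) of them at least 2-fold. Of the 865 genes higher at 4 h, 517 (59.8%) were higher again at 24 h, 251 (29%) were lower and 97 (11.2%) were not called. Of the 949 lower at 4 h, 421 (44.4%) were lower again, 396 (41.7%) were higher and 132 (13.9%) were not called. The direction was the same at both times for 938 of the 1814 genes called at 4 h (16.3% of those tested). Over all genes tested, 37.7% were higher and 40.1% lower at 24 h. Of genes lower at 4 h, the shares lower again (44.4%) and turned (41.7%) lay near these. Of genes higher at 4 h, the share higher again (59.8%) lay above that of all genes, and the share turned (29%) below. Of the genes that had not differed at 4 h, 3298 were higher and 3800 lower at 24 h. Genes whose difference turned include Cd101, described above, Sfxn5, a mitochondrial carrier (log2 fold changes between genotypes of -2.13 at 24 h and 0.18 at 4 h), and, in the other direction, Spp1 and Alas1, the rate-limiting enzyme of heme synthesis. Alas1 had 357, 353 and 338 CPM at 24 h and 86.1, 76.8 and 75.6 CPM at 4 h in CIS-/-. WT libraries had 108, 101 and 110 CPM at 24 h and 197, 196 and 203 CPM at 4 h. Lower than WT at 4 h, it was higher at 24 h without overlap at either time (3.04 ± 0.06, edgeR adjusted p = 2.17e-39). Genes that widened a difference in place at 4 h include Csf1, Acod1, Cd14, the co-receptor of lipopolysaccharide (3.42 ± 0.06), Olr1, the scavenger receptor LOX-1 (4.40 ± 0.08), Pecam1 (3.74 ± 0.06) and Lta, lymphotoxin alpha, which averaged 62 ± 7 CPM at 24 h and 6.66 ± 1.7 CPM at 4 h in CIS-/- and 1.64 ± 0.17 CPM at 24 h and 2.93 ± 0.3 CPM at 4 h in WT (4.02 ± 0.26).

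Chromosome 9, which carries Cish, held 29 of the 119 genes that differed at least 2-fold at 4 h (1.07% of those tested), while it held 617 of the 11158 tested. Rpl29, a ribosomal protein gene, had 2.99, 3.45 and 3.91 CPM at 24 h and 4.11, 3.56 and 3.5 CPM at 4 h in CIS-/-. Its WT values were 28.6, 25.3 and 26.4 CPM at 24 h and 19.8, 15.4 and 18.2 CPM at 4 h, and the groups were apart at both times (log2 fold changes of -2.92 and -2.25, interaction -0.67 ± 0.19, edgeR adjusted p = 0.0021). Ccr3, a chemokine receptor of eosinophils, was higher in CIS-/- by 3.38 at 24 h and 3.41 at 4 h, with an interaction value of -0.03 ± 0.29 (edgeR adjusted p = 0.935). Ccrl2, an atypical chemokine receptor, had 1660, 1620 and 1550 CPM at 24 h and 108, 109 and 103 CPM at 4 h in CIS-/-. The WT libraries held 44.6, 45.3 and 46.4 CPM at 24 h and 20.6, 19.2 and 19.7 CPM at 4 h, and its interaction value was 2.72 ± 0.08. Nt5e, the ectonucleotidase CD73 (1.48 ± 0.07), also had a higher value, and Acpp, a phosphatase (-1.05 ± 0.11), became lower still. Col6a4, a collagen, averaged 0.593 ± 0.14 CPM at 24 h and 13.9 ± 0.54 CPM at 4 h in CIS-/- and had 3 counts in WT at each time, for which no fold is given. The chromosome 9 genes named here were chosen after their values were seen. Without chromosome 9 the shares above were 60.5% kept and 28.5% turned of the 811 genes higher at 4 h, and 43.6% kept and 42.7% turned of the 867 lower.

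**Figure D4:**
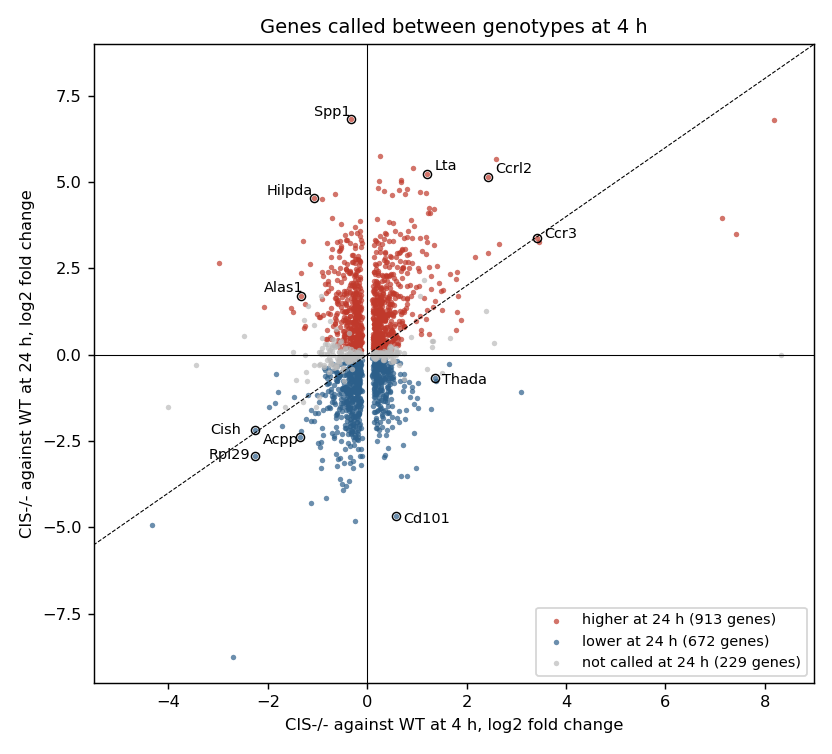
Log2 fold change between the CIS-/- libraries and WT at 24 h (vertical axis) against that at 4 h (horizontal axis) for the 1814 genes called at 4 h; the dashed line marks an equal difference. Points are coloured by the call at 24 h (913 higher, 672 lower, 229 not called); Cish, Rpl29 and Ccr3 lie near the line, Ccrl2 and Lta above it, and Alas1, Hilpda and Spp1 are lower at 4 h and higher at 24 h.

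Levels of other cell types' markers stand beside these results. The monocyte and macrophage list summed to 1890 to 2080 CPM at 24 h and 2990 to 3160 CPM at 4 h in CIS-/-, and to 1500 to 1560 CPM at 24 h and 3480 to 3680 CPM at 4 h in WT. Of its 10 tested members 5 had a higher and 3 a lower interaction value (median 0.34, or -0.15 with library sizes alone, where 5 were higher and 5 lower), with Cd68 (2.98 ± 0.08) and Adgre1, the gene of F4/80 (0.73 ± 0.06), higher and Csf1r (-0.43 ± 0.06) lower; Adgre1 averaged 765 ± 20 CPM at 24 h and 125 ± 1.9 CPM at 4 h in CIS-/- and 347 ± 12 CPM at 24 h and 94 ± 2.8 CPM at 4 h in WT. Ear6, an eosinophil ribonuclease with close paralogues, was higher (2.78 ± 0.56) and Siglecf lower (-1.02 ± 0.13); their list summed to 428 to 456 CPM in CIS-/- at 24 h, against 252 to 262 CPM in WT, most of it Kit. Hemoglobin genes were higher in CIS-/- at both times, and the erythroid and platelet list summed to 50.7 to 64.2 CPM in them at 24 h, against 15.4 to 17.1 CPM in WT, and to 82.2 to 116 CPM at 4 h, against 35.7 to 40.6 CPM in WT. The B cell list summed to 15.6 to 18.1 CPM in CIS-/- at 24 h, against 81.1 to 85.8 CPM in WT, and 1 of its 3 tested members had a lower interaction value; the single T and NK gene tested was not called, and 1 of 2 progenitor genes (Kit) was higher (median of both 0.14, or -0.35 with library sizes alone). The part of these cells in the results was not tested.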

How the data were processed

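RNA of the sorted neutrophils was sequenced by the authors, who deposited 1 table of raw read counts per gene for 53379 Ensembl IDs. The submitters' processing notes name Trimmomatic, STAR, featureCounts and the build mm10; the sources used here give no version, setting or strand option. Gene names for 53274 IDs and coordinates came from GENCODE on GRCm38, and promoter windows from RefSeq on GRCm38.p6.

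The 12 libraries were fitted as 4 groups with edgeR 4.0.16 in R 4.3.3 (filterByExpr by group, TMM factors, robust quasi-likelihood F test, Benjamini-Hochberg adjustment over 11158 genes). These genes held 99.916% of the counts. Replicates varied little (a common coefficient of variation of 3.8%, on 8 residual degrees of freedom). CPM values use TMM-scaled library sizes, so they are relative to the bulk of genes. The fit was also run on simulated counts in which 200 genes changed. In the data 7542 genes were called for the interaction, so that simulation does not test the scaling. No pair of replicates agreed within counting noise: the chi-square per degree of freedom ran from 1.645 to 8.461 over 12 pairs.

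Named genes are Cish, those with the largest interaction values of each sign, and the first by p of each list and of each pattern of time changes. Of 185 genes named with values, 128 come from this rule and 57 are members called against their list's majority, which the rule allows, or were added after their values were seen; some genes counted in the lists are not reported here by name. The members and the 40 lists were chosen with earlier results of these data known. Alternatives were DESeq2 1.42.0, limma-voom 3.58.1, other scalings, filters and priors, all 18 libraries, a replicate block, and each library left out.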

Additional observations from a re-analysis of the deposited data

Results flagged for a closer look

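Direction differed between the genotypes for many genes with a called interaction. With TMM factors, 1095 of them rose in CIS-/- and fell in WT between 4 h and 24 h. Another 868 fell in CIS-/- and rose in WT. Among the genes with the largest interaction values, opposite directions were called for Spp1 (7.15), Cxcl3 (6.73), Atp6v0d2 (5.81), Hilpda (5.63), Edn1 (5.43), H2-Eb1 (5.29) and Capn2 (5.17). The same held on the other side for Cd101 (-5.24), Bmx (-5.11), Fbxo31 (-4.57), Abhd15 (-4.37), Mettl7a1 (-4.33), Gpd1l (-4.31), Eef2k (-4.17) and Ctc1 (-3.90).

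In the 6 unstimulated libraries, which the comparison did not use, Cish stood at 18.3, 20 and 17.9 CPM in the libraries labelled CIS-/- and at 6.48, 6.52 and 6.5 CPM in WT (scaled over all 18 libraries). The lowest of the unstimulated libraries labelled CIS-/- thus lay above the highest of WT, against the label, whereas in all 12 libraries with GM-CSF the CIS-/- libraries were the lower. The cause was not tested.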

How the results depend on the processing

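With library sizes alone, 2215 interaction values were higher and 6027 lower (26.9% of calls higher, against 49.5% with TMM), 6679 genes rose and 2417 fell in WT, and at 24 h 2518 were higher and 6832 lower in CIS-/-; Cish then had an interaction value of -0.42 and was called, and its sign turned. Upper-quartile factors gave 3330 higher and 4337 lower interaction values (43.4% higher). With an absolute log2 value of at least 1 as a further limit, 1939 interaction values were higher and 1671 lower, 2033 genes rose and 1977 fell in CIS-/-, 1648 rose and 1685 fell in WT, 69 were higher and 50 lower in CIS-/- at 4 h, and 1995 were higher and 1841 lower at 24 h. DESeq2 gave 3616 and 3422 interaction calls and limma-voom 3754 and 3784. With all 18 libraries in the fit the 0.1 of Cish was called. Leaving out each library in turn gave 3637 to 3826 higher and 3578 to 3791 lower interaction values, and at 4 h 687 to 1016 higher and 729 to 1181 lower. The call of Gbp2 and that of Socs6 were lost with library sizes alone, and that of Col6a4 without WT 24 h replicate 3. Replicate numbers do not pair the samples (correlations of -0.063 to 0.068 between same-numbered libraries, 2 of 12 closest to their own number), and a replicate block gave 3741 higher and 3807 lower. The T and NK list had no gene left under the filter of 50 counts. Depth limits genes with 3 or fewer counts in a group, for which no fold is given.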
